A study of Mus musculus with 12 samples.

Results

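Mouse embryonic stem cells labelled Trim71-/- that also overexpressed Tnrc6a were set against control cells that carried Cas9 alone, so that both perturbations separate the groups. The libraries on each side were taken by their group label, which gave 6 of the study's 12 RNA-seq libraries, 3 on each side, with all genes of the count table. The other 6 libraries hold each perturbation by itself, Tnrc6a overexpression in control cells (Tnrc6a Ctrl) and Cas9 in Trim71-/- cells (Cas9 Trim71-/-), and served to split the net change. All 4 groups were 129S6/SvEvTac stem cells with an integrated reporter named yGlob GFP_5xT71BS and, per the growth protocol, a stable FLAG-Cas9::T2A::Blasticidin construct. That both sides share the Cas9 rests on this protocol, since the titles name Cas9 only in the groups without Tnrc6a. If Cas9 was not shared, its absence cannot be told apart from the effect of Tnrc6a. Cells were kept on gelatin in serum with LIF and plated in triplicate wells of 24-well dishes. Nothing in the labels gives separate lines per replicate, so the p-values measure only the spread between these wells, and a difference between lines cannot be told apart from the effect of genotype or of Tnrc6a. Total counts ran from 24303863 to 26467426 in the Tnrc6a Trim71-/- libraries and from 20758151 to 27320667 in the Cas9 Ctrl libraries, and 20486 of 20529 listed genes passed the filter on low counts.

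Trim71, of the TRIM-NHL proteins, binds RNA and represses mRNAs carrying a stem-loop recognised by its NHL domain, and it is known for keeping early embryonic cells proliferating. Tnrc6a, also called GW182, is the Argonaute partner in microRNA silencing: its C-terminal region recruits the deadenylases that shorten the poly(A) tails of targeted mRNAs. Both therefore act on mRNA stability and translation, and TRIM71 has been reported to bind Argonaute-containing complexes.

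For 9 of the 12 libraries a separate label of the RNA source disagrees with the title about which cells were used. It names HA-AVI-Tnrc6a, Ago2-/- or Upf1-/- cells, and in the Tnrc6a Trim71-/- libraries it says Upf1-/-. The 9 are all libraries outside Cas9 Ctrl, so both components of the net change described below rest on them. The groups follow the titles. Levels are given as CPM, the count scaled to the library's total after TMM normalization. Tnrc6a RNA stood at 3477, 3684 and 3704 CPM in the Tnrc6a Trim71-/- libraries, against 132, 134 and 131 CPM in Cas9 Ctrl (a log2 fold change of 4.78 with SE 0.04, edgeR adjusted p = 3.45e-48), and the groups did not overlap. Trim71 RNA, the transcript of the gene named in the genotype, stood at 237, 233 and 251 CPM in the Tnrc6a Trim71-/- libraries, against 290, 311 and 317 CPM in Cas9 Ctrl (a log2 fold change of -0.35 with SE 0.04, edgeR adjusted p = 1.11e-09), a small fall with no overlap, so this RNA was present on both sides. Ccr4, a chemokine receptor gene next to Trim71 on chromosome 9, stood at 25.8, 22.7 and 24.4 CPM in the Tnrc6a Trim71-/- libraries, against 0.999, 0.810 and 0.309 CPM in Cas9 Ctrl and so separated the groups. Upf1 RNA, of the helicase of nonsense-mediated decay, was not depleted in the libraries whose label names it (230 ± 1.88 CPM in Tnrc6a Trim71-/- and 173 ± 9.90 CPM in Cas9 Ctrl, SD, n = 3). Upf1 lies on chromosome 8, whose genes had a median net change of 0.47. Trim71 RNA was also present in the Trim71-/- libraries, so the Upf1 RNA level cannot decide which label holds. The 5 embryonic stem cell markers Pou5f1, Sox2, Nanog, Esrrb and Zfp42 summed to 3817 to 3897 CPM in Tnrc6a Trim71-/- and 3972 to 4017 CPM in Cas9 Ctrl, so the markers of the labelled cell type were expressed on both sides. The defining fibroblast markers Col3a1, Postn and Dcn were not among the genes tested, and the other 3 summed to 16.3 to 17.4 CPM in Tnrc6a Trim71-/- and 7.44 to 11.2 CPM in Cas9 Ctrl, without overlap. Thy1 made up most of that sum (means of 12.7 CPM in Tnrc6a Trim71-/- and 6.81 CPM in Cas9 Ctrl). The 7 tested genes of the wider fibroblast and feeder list, 3 higher and 2 lower, differed in the other direction. They summed to 152 to 161 CPM in Tnrc6a Trim71-/- and 240 to 252 CPM in Cas9 Ctrl. The part of these differences in the results was not tested.

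The net log2 change was split without remainder. Its genotype component is the mean of both Trim71-/- groups minus the mean of both Ctrl groups, its Tnrc6a component is the mean of both Tnrc6a groups minus the mean of both Cas9 groups, and the 2 sum to the net change. A gene is said to add up where both components passed an edgeR adjusted p of 0.05 with the same sign. It is opposed where both passed with opposite signs, and cancelled where it is opposed and the net change did not pass. By construction a gene that adds up has a net change of that sign, and both components come from the same 12 libraries, so these classes describe the net change and are no independent evidence of it. The departure from additivity was tested as the interaction of the perturbations on the log2 scale.

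Both perturbations together changed most genes by a small amount. Of 20486 genes, 6729 (32.8%) were higher and 6525 (31.9%) lower in Tnrc6a Trim71-/- cells, and at a change of at least 2-fold the counts were 2350 higher (11.5%) and 844 lower (4.12%). The genotype component passed for 9829 genes (48.0%), of which 4836 were higher (23.6%) and 4993 lower (24.4%). The Tnrc6a component passed for 14872 (72.6%), of which 7440 were higher and 7432 lower (36.3% each). Of the single contrasts behind them, Trim71-/- against Ctrl gave 20% of genes higher and 19% lower with Tnrc6a, and 17.1% and 19.1% with Cas9. Tnrc6a against Cas9 gave 32.0% higher and 30.9% lower in Trim71-/- cells, and 30.4% and 33.1% in Ctrl cells. Opposed genes outnumbered those that added up: 4690 were opposed (22.9%), against 1496 that added up higher (7.30%) and 1542 that added up lower (7.53%). Of the opposed genes, 1949 (9.51% of all) were cancelled, with a median absolute net change of 0.0800 on the log2 scale. Where an opposed gene kept a net change, it followed the Tnrc6a component for 2155 genes (10.5%) and the genotype component for 586 (2.86%). The interaction passed for 1419 genes (6.93%), so for most genes no departure from additivity was detected. At least 2-fold in both components, 77 genes added up higher, 19 added up lower and 474 were opposed. The 3 libraries of one group lay wholly above or below the 3 of the other for 13943 genes (68.1%).

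**Figure D1:**
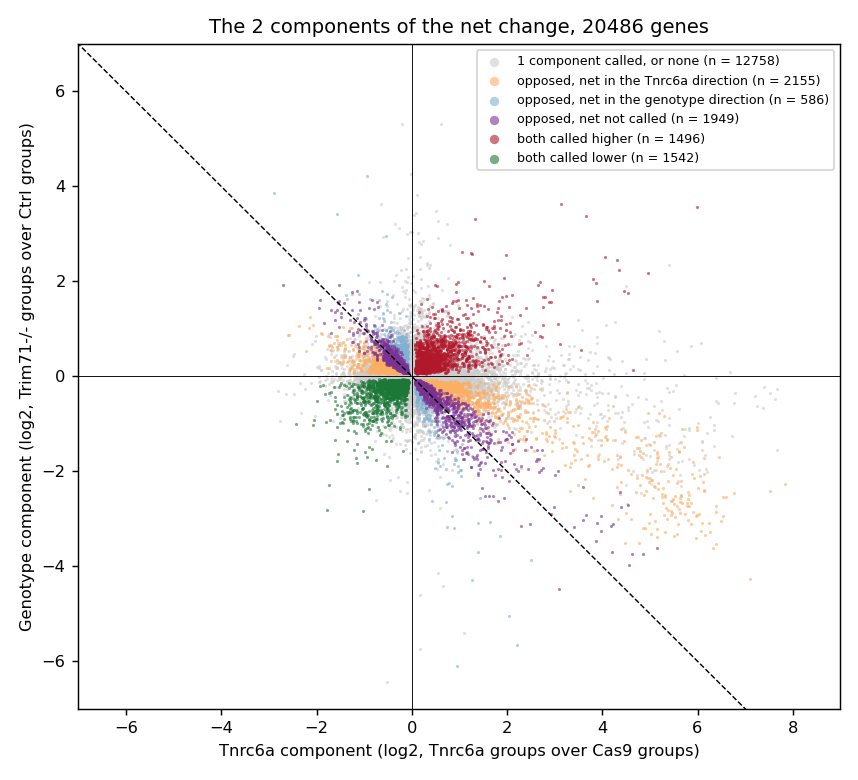
Each point is a gene, with its Tnrc6a component on the x axis and its genotype component on the y axis (both log2), coloured by class; on the dashed line the components sum to 0. The 4690 opposed genes lie in the upper left and lower right quadrants, most of the 1949 cancelled ones close to the dashed line, and 1 gene lies outside the axes.

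The net change differed with the expression level of the gene. Among 3746 genes with a mean under 1 CPM over the 12 libraries, 31% were higher and 8.09% lower, most of them by at least 2-fold (28% and 6.33%), with a median net change of 0.35 on the log2 scale. A gene this low could pass the filter on low counts through the group where it was high. The part of this selection in the excess of rises was not tested. Among 2432 genes at 100 CPM or more, 22.5% were higher and 59.1% lower, few of them by at least 2-fold (0.905% and 2.22%), and the median was -0.17. The Tnrc6a component ran in the same order, with a median of 0.38 in the lowest bin and -0.19 in the highest, while the genotype medians there were -0.05 and 0.01. Over all genes the medians of the net change, the genotype component and the Tnrc6a component were 0.01, -0.01 and 0.00.

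**Figure D2:**
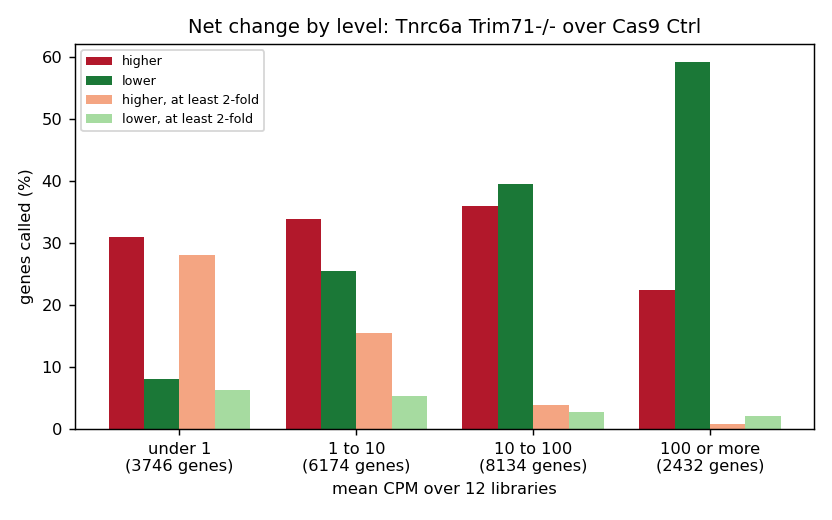
Share of genes called higher or lower in Tnrc6a Trim71-/- over Cas9 Ctrl (y axis, percent, edgeR adjusted p under 0.05) by mean CPM over the 12 libraries (x axis), for any change and for at least 2-fold. The share called lower climbs from 8.09% under 1 CPM to 59.1% at 100 CPM or more. Genes under 1 CPM could pass the filter on low counts through the group where they were high.

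Genes of chromosome 8 stood apart as a block. Its 664 genes averaging 5 CPM or more had a median net change of 0.47, made up of a genotype median of 0.51 and a Tnrc6a median of -0.04, while the net medians of the other chromosomes lay between -0.16 and -0.02. Of the 1496 genes that added up higher, 248 lie on chromosome 8, against 10 of the 1542 that added up lower. Without chromosome 8 genes, 6072 genes were higher, 6386 lower, 1248 added up higher and 1532 added up lower. Chromosome 8 genes named in what follows are Irf2, Rpl13, Cox4i1, Col4a1, Col4a2, Cnot1, Cnot7, Edc4, Lsm1, Upf1, Upf3a, Ier2, Bst2, Nanos3, Inpp4b, Osgin1 and Ces2e. The copy number of the chromosome was not tested.

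**Figure D3:**
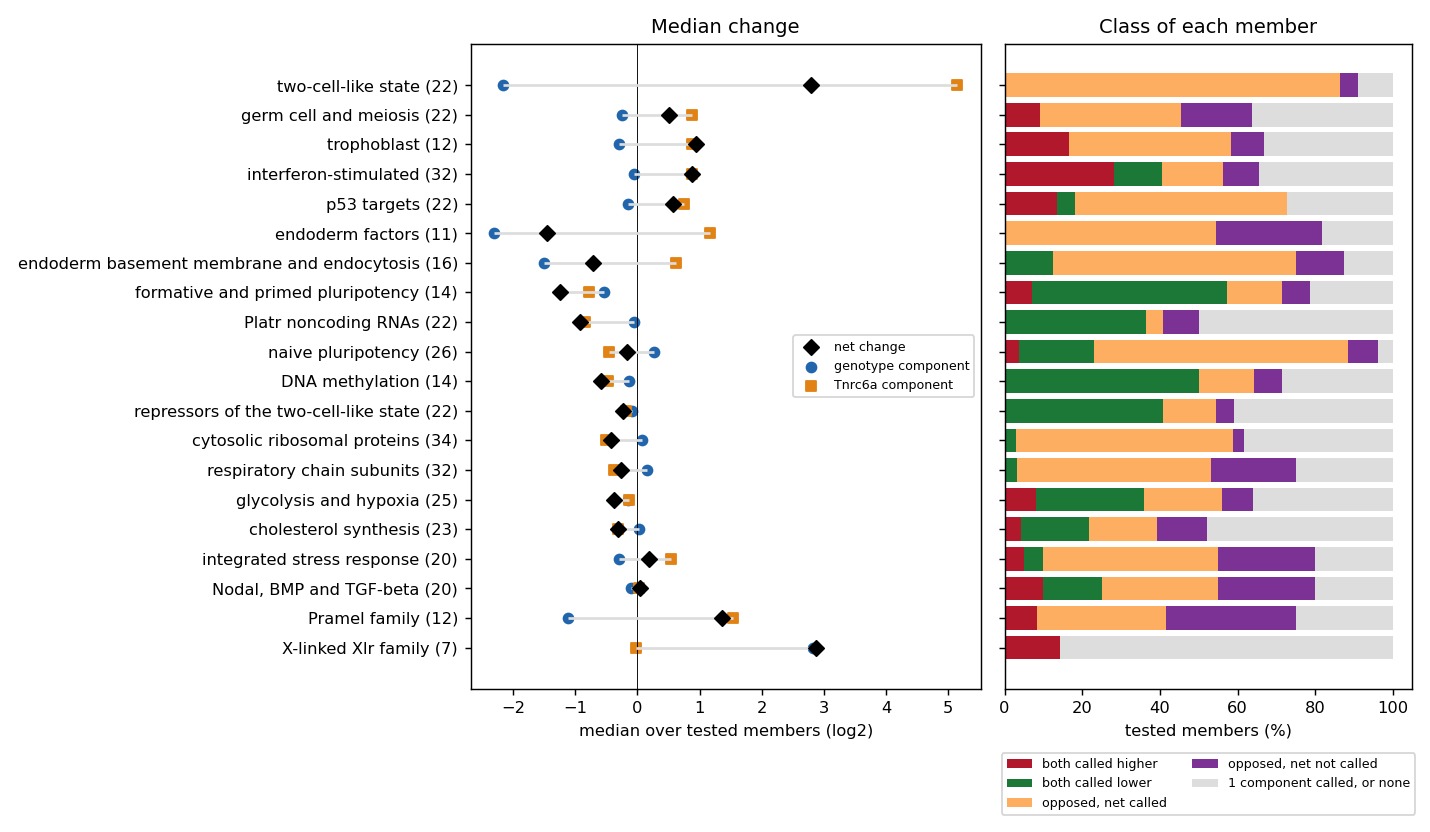
Left, median net change, genotype component and Tnrc6a component (x axis, log2) over the tested members of 20 gene lists, with the number of members in parentheses. Right, share of the members in each class (percent). Components lie on opposite sides of 0 for the 2-cell-like state, endoderm factors and Pramel family, and on the same side for the formative and DNA methylation lists.

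Interferon-stimulated genes, the antiviral effectors that cells switch on when they sense foreign nucleic acid or interferon, held several of the largest rises that added up. Of 32 tested members (33 listed), 22 were higher and 5 lower, with a median net change of 0.88 (also with Isg15 at its lower bound), against 32.8% and 31.9% of all genes and a median of 0.01. Both components added up higher for 9 members and lower for 4. Isg15, a ubiquitin-like modifier, stood at 3.86, 3.35 and 3.51 CPM in the Tnrc6a Trim71-/- libraries, against 0, 0 and 0 CPM in Cas9 Ctrl. That is 287 counts against 0, a level at least 85.4-fold higher from a floor of 3 counts over the Cas9 Ctrl group, and its fitted components rest on that empty group. Ifit1, which binds viral RNA ends, had 162 counts in Tnrc6a Trim71-/- and 1 in Cas9 Ctrl, a 145-fold ratio with a 95% counting interval of 25.6 to 5750.

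Oasl1, an oligoadenylate synthetase-like protein, was the most abundant of these: 34, 29.0 and 28.7 CPM in the Tnrc6a Trim71-/- libraries, against 0.653, 0.810 and 0.618 CPM in Cas9 Ctrl (a log2 fold change of 5.47 with SE 0.15, edgeR adjusted p = 5.08e-31). The single perturbations gave 7.68 ± 0.168 CPM in Tnrc6a Ctrl and 1.56 ± 0.352 CPM in Cas9 Trim71-/- (SD, n = 3), so the level with both was above either alone and the groups did not overlap. Rsad2, the antiviral enzyme viperin, stood at 3.79, 4.01 and 3.90 CPM in the Tnrc6a Trim71-/- libraries, against 0.269, 0.101 and 0.0386 CPM in Cas9 Ctrl (a log2 fold change of 4.76 with SE 0.36, edgeR adjusted p = 1.52e-15), with a genotype component of 1.81 and a Tnrc6a component of 2.95. Without Cas9 Ctrl replicate 1 the Rsad2 value was 5.79. The chemokine gene Cxcl10 was higher too (3.94, SE 0.36), but its genotype component of 0.65 did not pass. Irf2, a transcription factor of the interferon pathway outside this list, had 208 counts in Tnrc6a Trim71-/- and 2 in Cas9 Ctrl (ratio 92.9, 95% counting interval 25.4 to 772). These levels were low: apart from Oasl1, each of these genes stayed under 5 CPM.

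The list did not move as one. The 4 members that added up lower, named here after their values were seen, were the transmembrane restriction factors Ifitm1, Ifitm2 and Ifitm3 and the ubiquitin ligase gene Trim25. Ifitm1 stood at 6.85, 4.75 and 7.41 CPM in the Tnrc6a Trim71-/- libraries, against 41.2, 45.8 and 39.8 CPM in Cas9 Ctrl (a log2 fold change of -2.74 with SE 0.12, edgeR adjusted p = 6.55e-16), and its single perturbations gave 16.8 ± 1.96 CPM in Tnrc6a Ctrl and 16.8 ± 1.78 CPM in Cas9 Trim71-/-, so each perturbation alone lowered it to a like level and both together lowered it further. Of the 8 members that were opposed, 4 kept a net change in the Tnrc6a direction. Among these, Tap1, the peptide transporter of antigen presentation, was higher (1.59, SE 0.12) with components of -0.62 and 2.21, and so was the class I heavy chain H2-K1 (0.80, SE 0.06). Bst2 (tetherin) and the immunoproteasome subunit Psmb9 were cancelled, at -0.19 (adjusted p = 0.0643, edgeR) and 0.18 (adjusted p = 0.416, edgeR). Without Tnrc6a Trim71-/- replicate 1, Bst2 passed as lower (-0.26, edgeR adjusted p = 0.0277). The summed level of the list, weighted by its abundant members, was 673 to 701 CPM in Tnrc6a Trim71-/- and 806 to 828 CPM in Cas9 Ctrl.

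The promoters of 3 of the genes that added up are printed to show the element through which interferon signalling is known to act, the interferon-stimulated response element. They are RefSeq sequences of GRCm38.p6, from 250 bases before to 50 after the start, 5′ to 3′ on the gene's strand, with each match in capitals. The motif searched is a direct repeat of TTTC with 2 bases between the copies, or on the other strand a repeat of GAAA so spaced, and overlapping matches run together.
Isg15 (chr4:156200769-156201068, minus strand): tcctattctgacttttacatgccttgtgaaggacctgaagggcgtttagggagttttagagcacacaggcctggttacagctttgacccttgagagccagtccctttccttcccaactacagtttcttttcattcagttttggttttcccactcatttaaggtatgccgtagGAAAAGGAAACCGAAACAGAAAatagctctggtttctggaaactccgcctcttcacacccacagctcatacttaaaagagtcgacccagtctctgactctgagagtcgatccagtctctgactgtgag
Ifit1 (chr19:34640639-34640938, plus strand): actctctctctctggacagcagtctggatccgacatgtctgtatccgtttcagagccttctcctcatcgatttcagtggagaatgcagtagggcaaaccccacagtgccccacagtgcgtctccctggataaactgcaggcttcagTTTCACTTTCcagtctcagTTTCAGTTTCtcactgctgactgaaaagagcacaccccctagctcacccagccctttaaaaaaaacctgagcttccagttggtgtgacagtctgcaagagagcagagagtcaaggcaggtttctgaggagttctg
Rsad2 (chr12:26456403-26456702, minus strand): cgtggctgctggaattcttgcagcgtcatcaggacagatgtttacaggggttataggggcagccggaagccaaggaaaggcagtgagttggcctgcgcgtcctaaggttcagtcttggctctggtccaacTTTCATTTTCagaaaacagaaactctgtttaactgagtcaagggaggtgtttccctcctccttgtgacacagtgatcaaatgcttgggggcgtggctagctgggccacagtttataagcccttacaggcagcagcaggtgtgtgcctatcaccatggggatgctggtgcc
Isg15 holds 3 overlapping matches that begin 78, 72 and 66 bases before the start, Ifit1 holds 2 and Rsad2 holds 1. Of 27 list members with a RefSeq promoter, 13 hold the motif in any of their windows (48.1%), against 1131 of 32851 promoter windows in all (3.44%). The first share counts genes and the second counts windows, so they are not in like units. The motif did not sort the members by direction: it was found in 7 of 18 that were higher, 3 of 5 that were lower and 2 of 3 with no net call. The remaining one, Ifit3, holds 2 matches and was not among the genes tested. Oasl1 has no match in this window.

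In other lists, some members added up higher. The shares over all genes were 32.8% higher, 31.9% lower, 22.9% opposed and 7.30% adding up higher. Of 22 p53 target genes, 17 were higher and 5 lower (median 0.57). Of these 22, 12 were opposed, 10 of them with a net change in the Tnrc6a direction, while 3 added up higher, and the component medians were -0.16 for genotype and 0.75 for Tnrc6a. Btg2, an antiproliferative protein that recruits the CCR4-NOT deadenylase, stood at 258, 257 and 270 CPM in the Tnrc6a Trim71-/- libraries, against 67.1, 63.9 and 69.9 CPM in Cas9 Ctrl (a log2 fold change of 1.96 with SE 0.04, edgeR adjusted p = 2.10e-34). Perp, a membrane protein of p53-induced apoptosis, stood at 85.6, 90.6 and 89.2 CPM in the Tnrc6a Trim71-/- libraries, against 22.8, 23.8 and 23.3 CPM in Cas9 Ctrl (a log2 fold change of 1.93 with SE 0.06, edgeR adjusted p = 1.88e-29), and its components of 0.87 and 1.06 were of like size. Neither gene's groups overlapped. The surface glycoprotein Cd24a was higher as well (2.17, SE 0.06; components 1.21 and 0.96), as the single riser of the formative list. Replication-dependent histones, whose mRNAs end in a stem-loop instead of a poly(A) tail, had 8 of 19 tested members higher and 2 lower, with a median of 0.86 and 5 that added up higher, H2bc4 (1.63, SE 0.10) and H1f2 (1.21, SE 0.09) among them. Counts of such multicopy genes depend on how reads shared between copies were assigned.

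Outside the lists, the largest rises that added up included Plcd4, a phospholipase C (4.44, SE 0.22), the growth factor-like gene Mst1 (3.85, SE 0.30), Sytl4, a regulator of exocytosis (2.94, SE 0.27), and Zhx2, a transcriptional repressor. Zhx2 stood at 6.06, 7.14 and 7.65 CPM in the Tnrc6a Trim71-/- libraries, against 0.922, 0.759 and 1.08 CPM in Cas9 Ctrl (a log2 fold change of 2.89 with SE 0.22, edgeR adjusted p = 9.34e-15), with components of 1.52 and 1.37 and no overlap. Osgin1 (4.49, SE 0.41) and Ces2e (3.25, SE 0.28) belong to the same set, and Osgin1 stood at 5.91 without Cas9 Ctrl replicate 1.

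Formative and primed pluripotency genes, which mark the exit from the naive state towards lineage commitment, added up downward. Of 14 tested members (16 listed), 12 were lower and 1 higher in Tnrc6a Trim71-/- cells, with a median of -1.24, and 7 added up lower. The zinc finger factor Zic2 stood at 3.68, 2.72 and 3.27 CPM in the Tnrc6a Trim71-/- libraries, against 14.9, 15.4 and 13.6 CPM in Cas9 Ctrl (a log2 fold change of -2.18 with SE 0.12, edgeR adjusted p = 6.17e-20), and Zic5 was lower by more (-2.65, SE 0.12; components -1.07 and -1.57). The groups of Zic2 did not overlap. Lef1, a Wnt effector (-2.54, SE 0.32), and the POU factor Pou3f1 (-1.59, SE 0.13) followed the genotype component alone, since their Tnrc6a components of -0.09 and -0.14 did not pass. Foxd3 was opposed, with components of 0.48 and -0.95 and a net change of -0.47.

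The DNA methylation machinery was lower as well. Of 14 genes, 11 were lower and 1 higher (median -0.59), and 7 added up lower. Dnmt3l, the cofactor of the de novo methyltransferases, stood at 77.4, 72.3 and 72.3 CPM in the Tnrc6a Trim71-/- libraries, against 250, 250 and 253 CPM in Cas9 Ctrl (a log2 fold change of -1.76 with SE 0.04, edgeR adjusted p = 4.36e-32), and the genotype component of -1.57 made up most of it. Dnmt3a itself stood at 80.5, 79.1 and 79.2 CPM in the Tnrc6a Trim71-/- libraries, against 204, 207 and 207 CPM in Cas9 Ctrl (a log2 fold change of -1.37 with SE 0.05, edgeR adjusted p = 1.41e-27), with components of -0.84 and -0.53. Neither gene's groups overlapped. Tet1, which oxidises methylcytosine, was lower (-1.18, SE 0.12), while Tet3 was higher through Tnrc6a (0.95, SE 0.10). Zfp57, which protects imprinted methylation, was cancelled: 612, 598 and 586 CPM in Tnrc6a Trim71-/- and 635, 598 and 621 CPM in Cas9 Ctrl, with components of 0.63 and -0.68.

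Of 20 tested imprinted genes (22 listed), 7 were higher and 11 lower, and 7 added up lower, with Grb10, an adaptor that restrains growth signalling (-2.06, SE 0.04), Snrpn (-1.51, SE 0.04) and the noncoding RNA Rian (-0.96, SE 0.04) among them. Among all genes, 32.8% were higher, 31.9% lower and 7.53% added up lower. Noncoding RNAs associated with pluripotency (Platr) gave 14 lower and 2 higher of 22 tested members, a median of -0.93, and 8 that added up lower. Lncenc1, a long noncoding RNA of naive stem cells, stood at 7.79, 6.77 and 6.03 CPM in the Tnrc6a Trim71-/- libraries, against 97.7, 104 and 97.3 CPM in Cas9 Ctrl (a log2 fold change of -3.85 with SE 0.07, edgeR adjusted p = 2.88e-37), with 54.6 ± 1.05 CPM in Tnrc6a Ctrl and 15.5 ± 0.351 CPM in Cas9 Trim71-/- under the single perturbations. The testis-type ribosomal protein paralog Rpl39l stood at 9.77, 9.43 and 8.16 CPM in the Tnrc6a Trim71-/- libraries, against 71.4, 77.5 and 68.5 CPM in Cas9 Ctrl (a log2 fold change of -2.98 with SE 0.07, edgeR adjusted p = 6.67e-33), and neither gene's groups overlapped. The homeobox genes of 1 cluster, Cphx1 (-2.89, SE 0.30), Cphx2 (-4.02, SE 0.34) and Cphx3 (-2.57, SE 0.32), added up lower from levels under 3 CPM, and Cphx2 and Cphx3 share exons on the same strand.

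Lin28a, the RNA-binding protein that blocks let-7 maturation, stood at 64.7, 63.2 and 60.7 CPM in the Tnrc6a Trim71-/- libraries, against 317, 316 and 332 CPM in Cas9 Ctrl (a log2 fold change of -2.36 with SE 0.04, edgeR adjusted p = 6.82e-37), without overlap and with components of -0.80 and -1.56. It belongs to the list of reported repressors of the 2-cell-like state, of whose 22 members 15 were lower and 3 higher, with a median of -0.24 and 9 that added up lower. Others were the corepressor Trim28 (-0.77, SE 0.03) and the paired chromatin factors Dppa2 (-0.90, SE 0.04) and Dppa4 (-0.76, SE 0.05). Dppa2 and Dppa4 are known to act as activators of the state, so the counts of this list do not describe repressors alone.

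**Figure D4:**
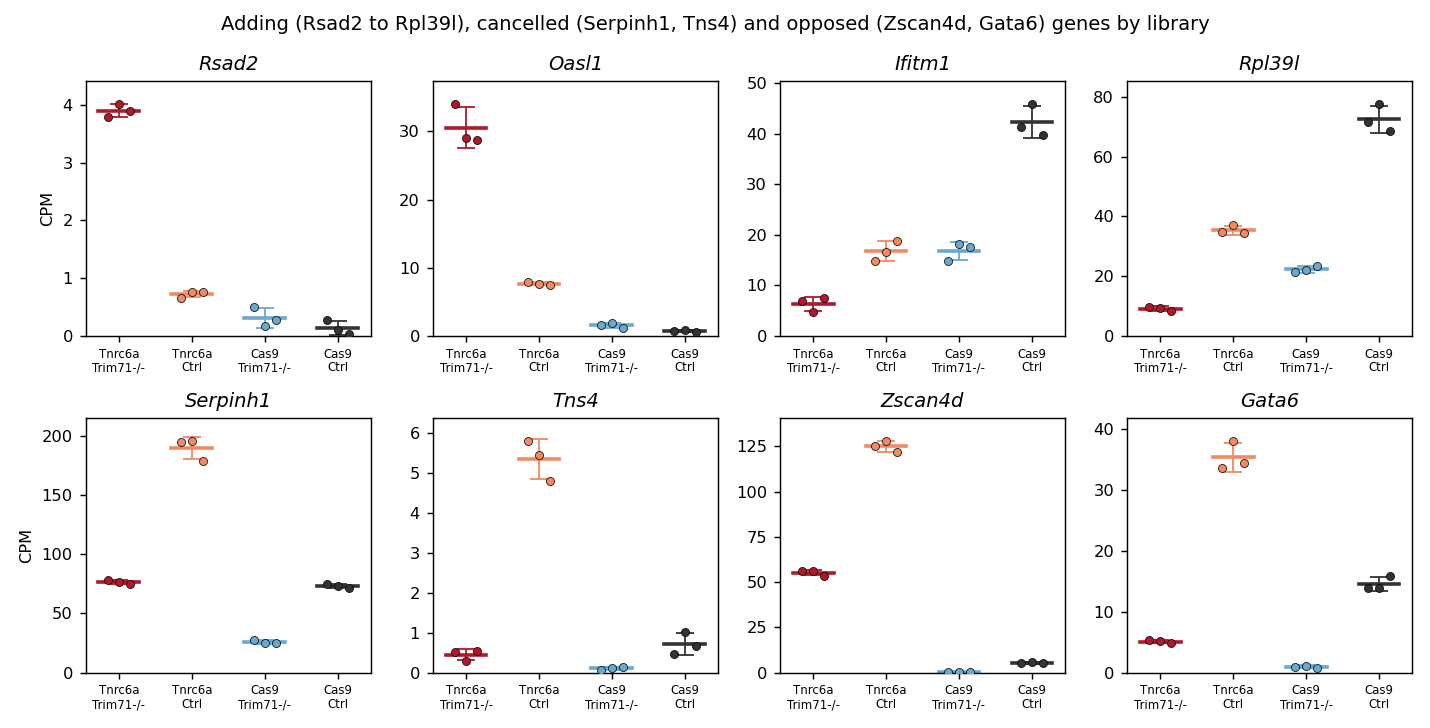
CPM in each library (points), with the mean and SD of 3 libraries (bars), for 8 genes in the 4 groups. Rsad2 and Oasl1 are highest and Ifitm1 and Rpl39l lowest in Tnrc6a Trim71-/-, while Serpinh1 and Tns4 overlap between Tnrc6a Trim71-/- and Cas9 Ctrl.

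The programme with the widest opposition was that of the 2-cell-like state, into which few cells of a culture enter at a time and in which they express genes of zygotic genome activation. Of 22 tested members (23 listed), 21 were higher and none lower in Tnrc6a Trim71-/- cells, and 20 were opposed. The median genotype component was -2.16 and the median Tnrc6a component 5.15, leaving a net median of 2.79. The summed level of the 22 genes was 348 to 372 CPM with both perturbations and 45.9 to 46.8 CPM in Cas9 Ctrl, and it averaged 978 CPM in Tnrc6a Ctrl and 5.88 CPM in Cas9 Trim71-/-. In bulk RNA, more cells in the state and more RNA per such cell cannot be told apart.

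Zscan4d, a telomere-linked zinc finger gene of the state, stood at 55.9, 56.3 and 53.5 CPM in the Tnrc6a Trim71-/- libraries, against 5.19, 5.87 and 5.06 CPM in Cas9 Ctrl (a log2 fold change of 3.37 with SE 0.08, edgeR adjusted p = 9.02e-34), and Zscan4c at 57.9, 53.6 and 52.2 CPM in the Tnrc6a Trim71-/- libraries, against 6.45, 7.54 and 6.45 CPM in Cas9 Ctrl (a log2 fold change of 3.01 with SE 0.07, edgeR adjusted p = 8.31e-33). For both genes the groups did not overlap. Sp110, a nuclear body protein (4.93, SE 0.17), Zfp352 (3.46, SE 0.23) and the deubiquitinase Usp17lc (3.54, SE 0.16) were higher too. Tmem92 was higher by less (1.59, SE 0.22), since its genotype component of -3.01 offset more of its Tnrc6a component of 4.60. The departure from additivity was higher for 9 of the 22 members and lower for none (4.68% and 2.25% of all genes). For these 9 the net log2 change exceeded the sum of the single log2 changes. As a level, the 22 genes summed to less with both (mean 361 CPM) than in Tnrc6a Ctrl (978 CPM). The sum in Cas9 Trim71-/- was low (5.88 CPM). Counts of the Zscan4, Tcstv and Usp17l families come from near-identical copies, so the share of each copy is uncertain. The Pramel family, multicopy genes active in early embryos, showed a like split: of 12 tested members (23 listed), 8 were higher, none lower, 8 opposed and 4 cancelled, with medians of -1.12 for genotype, 1.53 for Tnrc6a and 1.36 net.

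Endoderm factors were the opposed programme that followed the genotype. These transcription factors and signals specify primitive endoderm, a lineage that parts early from the epiblast. Of 11 genes, 7 were lower and 1 higher, 9 were opposed, and 3 of these were cancelled (medians -2.31 for genotype, 1.16 for Tnrc6a, -1.45 net). Gata6 stood at 5.27, 5.15 and 4.85 CPM in the Tnrc6a Trim71-/- libraries, against 13.8, 13.9 and 15.8 CPM in Cas9 Ctrl (a log2 fold change of -1.51 with SE 0.10, edgeR adjusted p = 5.91e-17), with components of -3.36 and 1.85, and Gata4 stood at 5.81, 6.30 and 7.61 CPM in the Tnrc6a Trim71-/- libraries, against 21.0, 22.4 and 20.3 CPM in Cas9 Ctrl (a log2 fold change of -1.69 with SE 0.09, edgeR adjusted p = 4.01e-20). Neither gene's groups overlapped, and Tnrc6a raised both while falling short of the genotype component. Sox17 (-2.31, SE 0.17), the Wnt inhibitor Dkk1 (-2.42, SE 0.32), Foxq1 (-3.04, SE 0.17) and the receptor Pdgfra (-1.45, SE 0.11) were lower as well. The higher member, Hnf4a, named after its values were seen (0.57, edgeR adjusted p = 0.0443), lost its call, leaving 0, without Tnrc6a Trim71-/- replicate 1, without Cas9 Ctrl replicate 1 or 2, and with limma-voom, DESeq2 or the 2 groups alone.

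Genes of endoderm basement membrane and endocytosis gave a like split, with 12 of 16 lower, 2 higher and 12 opposed. The endocytic receptor gene Cubn stood at 0.397, 0.221 and 0.197 CPM in the Tnrc6a Trim71-/- libraries, against 11.3, 13.9 and 14.9 CPM in Cas9 Ctrl (a log2 fold change of -5.58 with SE 0.35, edgeR adjusted p = 1.46e-08). It was the largest fall among called genes with at least 1 CPM on average, no overlap and no placeholder name. The proteoglycan core gene Srgn fell nearly as far (-5.16, SE 0.23), and the laminin genes Lama1 (-1.45, SE 0.11) and Lamb1 (-1.29, SE 0.05) fell by less. Col4a1 and Col4a2 of collagen IV were nearly balanced, with components of -1.67 and 1.26 for Col4a1 and net changes of -0.42 and -0.46.

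**Figure D5:**
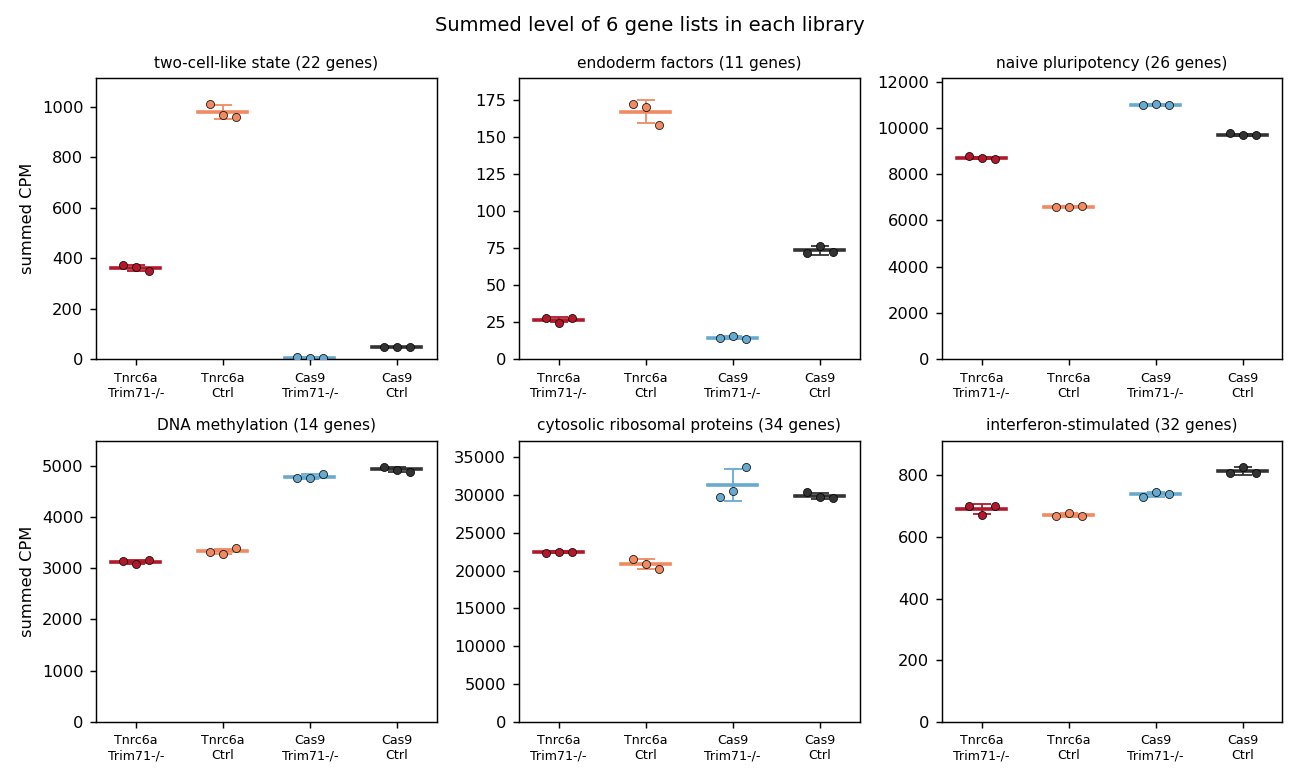
Summed CPM of the tested members of 6 lists in each library (points), with mean and SD of 3 libraries (bars), in the 4 groups. The 2-cell-like sum is higher and the endoderm sum lower in Tnrc6a Trim71-/- than in Cas9 Ctrl, and in both lists the highest sum is in Tnrc6a Ctrl.

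Naive pluripotency genes were mostly opposed, and the net change was mixed. Of 26 members, 19 were opposed, 10 were higher and 14 lower, with medians of 0.27 for genotype, -0.45 for Tnrc6a and -0.17 net. The summed level was 8660 to 8776 CPM in Tnrc6a Trim71-/- and 9692 to 9772 CPM in Cas9 Ctrl. Pou5f1, the Oct4 gene, stood at 783, 792 and 769 CPM in the Tnrc6a Trim71-/- libraries, against 1508, 1425 and 1468 CPM in Cas9 Ctrl (a log2 fold change of -0.91 with SE 0.04, edgeR adjusted p = 4.56e-23), nearly all of it from the Tnrc6a component of -1.02, and its groups did not overlap. Esrrb, an orphan nuclear receptor of the naive network, kept a small rise (0.12, SE 0.03) between components of 0.57 and -0.45, and Tet2 a small fall (-0.17, SE 0.04) between 0.80 and -0.97. Dppa5a was lower through both components (-1.73, SE 0.04; -0.81 and -0.91).

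Genes of protein synthesis and respiration fell with Tnrc6a, and the genotype offset a part. A fall was common among abundant genes. Of all genes at 100 CPM or more, 59.1% were lower, with medians of -0.17 for the net change and -0.19 for Tnrc6a. Whether these lists differ from other genes of like level was not tested. Of 34 cytosolic ribosomal protein genes, 33 were lower and none higher, with medians of 0.08 for genotype, -0.51 for Tnrc6a and -0.43 net, and their summed level was 22315 to 22518 CPM in Tnrc6a Trim71-/- and 29626 to 30340 CPM in Cas9 Ctrl. Rplp0 stood at 860, 836 and 842 CPM in the Tnrc6a Trim71-/- libraries, against 1359, 1308 and 1321 CPM in Cas9 Ctrl (a log2 fold change of -0.65 with SE 0.04, edgeR adjusted p = 8.22e-19), without overlap. Rpl13 was the single member with no net call (0.08, edgeR adjusted p = 0.120), and it passed as higher with upper-quartile factors (0.10, edgeR adjusted p = 0.0423), at least 1 CPM in 6 libraries (0.11, edgeR adjusted p = 0.0356), the 2 groups alone (0.09, edgeR adjusted p = 0.0147, or 0.0326 with the replicate block), and without Cas9 Trim71-/- replicate 3 (0.08, edgeR adjusted p = 0.0423). Of 32 respiratory chain subunits, 24 were lower and 1 higher (median net change -0.26), 23 were opposed and 7 of these cancelled. The single riser was Cox4i1 (0.42, SE 0.04). Transcripts sensitive to nonsense-mediated decay, many of them hosts of small nucleolar RNAs, gave 13 lower and 4 higher of 19, and the host gene Gas5 was cancelled at 278, 271 and 284 CPM in Tnrc6a Trim71-/- and 296, 275 and 267 CPM in Cas9 Ctrl.

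Cancelled genes have, by definition, components of opposite sign and no net call. Most had like levels on both sides, with a median absolute net change of 0.0800. For 15 of them the net change was at least 2-fold without passing. Serpinh1, the collagen chaperone HSP47, stood at 78.5, 76.5 and 74.6 CPM in the Tnrc6a Trim71-/- libraries, against 74.9, 73.1 and 71.4 CPM in Cas9 Ctrl, with 190 ± 9.67 CPM in Tnrc6a Ctrl and 25.9 ± 1.48 CPM in Cas9 Trim71-/- under the single perturbations (SD, n = 3). Its components of -1.40 and 1.47 left a net change of 0.07, SE 0.05 (edgeR adjusted p = 0.219), and the libraries of the 2 groups overlapped. Flt1, a receptor of vascular endothelial growth factors, stood at 2.42, 2.54 and 2.40 CPM in Tnrc6a Trim71-/- and 2.30, 2.53 and 2.2 CPM in Cas9 Ctrl, with components of -1.80 and 1.87, and the transcription factor Ets1 stood at 2.99, 4.23 and 4.14 CPM in Tnrc6a Trim71-/- and 3.03, 3.69 and 3.94 CPM in Cas9 Ctrl. Tns4, a focal adhesion protein, had 0.450 CPM in Tnrc6a Trim71-/-, 5.36 in Tnrc6a Ctrl, 0.110 in Cas9 Trim71-/- and 0.710 in Cas9 Ctrl (means). In the other direction, Pirt, a regulator of sensory ion channels, stood at 1.59, 1.88 and 1.66 CPM in Tnrc6a Trim71-/- and 1.88, 1.62 and 1.66 CPM in Cas9 Ctrl, with 0.517 ± 0.159 CPM in Tnrc6a Ctrl and 4.45 ± 0.108 CPM in Cas9 Trim71-/- under the single perturbations. Among the 1949 cancelled genes, 1105 had a lower and 844 a higher genotype component. A cancelled call says that no net change was detected: the standard error of 0.05 for Serpinh1 bounds it closely, while that of Tns4 (-0.61, SE 0.35) leaves a wide range, and without Cas9 Ctrl replicate 1 Tns4 passed as lower (-0.85, edgeR adjusted p = 0.0415).

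Members of several lists cancelled in part. The shares over all genes were 22.9% opposed, 9.51% cancelled, 32.8% higher and 31.9% lower. Of 20 integrated stress response genes, which answer amino acid and protein-folding stress through Atf4, 14 were opposed and 5 cancelled, and 9 were higher and 4 lower. Atf3 (1.79, SE 0.10), Ddit4 (1.72, SE 0.06) and Ddit3 (1.70, SE 0.09) were higher, and Nupr1 was cancelled (0.05, edgeR adjusted p = 0.652). Of 20 Nodal, BMP and TGF-beta genes, 11 were opposed and 5 cancelled. Tgfbr2, the type II receptor, was higher (2.07, SE 0.16), while the feedback inhibitors Lefty1 (-1.80, SE 0.14) and Lefty2 (-1.03, SE 0.10) were lower. Inhbb, an activin subunit, averaged 269 CPM in Tnrc6a Trim71-/-, 61.9 in Tnrc6a Ctrl, 495 in Cas9 Trim71-/- and 225 in Cas9 Ctrl, so components of 1.63 and -1.37 left a net change of 0.26, SE 0.04. Of 22 germ cell and meiosis genes, 13 were higher, 2 lower, 12 opposed and 4 cancelled. The synaptonemal complex genes Sycp3 (6.06, 6.15 and 5.76 CPM in Tnrc6a Trim71-/- and 5.42, 6.73 and 6.14 CPM in Cas9 Ctrl) and Sycp1 (-0.02, SE 0.12) were cancelled, Stra8, the retinoic acid-induced gene of meiotic entry, was lower (-0.96, SE 0.09), and the X-linked Taf7l was higher (1.73, SE 0.09). The count of 2 lower members became 1 with upper-quartile factors, DESeq2 or at least 1 CPM in 6 libraries, and without Cas9 Ctrl replicate 1 or 2 or Tnrc6a Trim71-/- replicate 1 or 3. The growth factor gene Igf2, imprinted as H19 is, was cancelled at 8.88 ± 1.45 CPM in Tnrc6a Trim71-/- and 7.74 ± 0.589 CPM in Cas9 Ctrl (SD, n = 3), with 26.9 ± 0.821 CPM in Tnrc6a Ctrl and 6.10 ± 0.360 CPM in Cas9 Trim71-/- under the single perturbations. Without Tnrc6a Trim71-/- replicate 1 it passed as higher (0.33, edgeR adjusted p = 0.00938).

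Departures from additivity were counted gene by gene within the lists. Among the 22 p53 targets the interaction was higher for 16 and lower for none, against 4.68% and 2.25% of all genes. Pmaip1, the pro-apoptotic protein NOXA, stood at 40.2, 41.2 and 38.5 CPM in the Tnrc6a Trim71-/- libraries, against 77.1, 77.8 and 83.5 CPM in Cas9 Ctrl (a log2 fold change of -0.99 with SE 0.05, edgeR adjusted p = 4.46e-20), and its interaction was 0.82, SE 0.08, edgeR adjusted p = 5.71e-10. Cdkn1a, the cell cycle inhibitor p21, stood at 102, 98.2 and 107 CPM in the Tnrc6a Trim71-/- libraries, against 32.1, 34.2 and 32.0 CPM in Cas9 Ctrl (a log2 fold change of 1.65 with SE 0.05, edgeR adjusted p = 2.28e-28), and both genes' groups were apart. ERK response genes had 11 of 19 with a higher interaction and none with a lower one. Egr1, an immediate early gene and reported TRIM71 target, averaged 17.4 CPM in Tnrc6a Trim71-/-, 19.8 in Tnrc6a Ctrl, 18.1 in Cas9 Trim71-/- and 73.9 in Cas9 Ctrl, so each perturbation alone lowered it about as far as both (interaction 1.84, SE 0.12, edgeR adjusted p = 9.58e-13). Fosl1 was higher (2.28, SE 0.15), while the feedback regulators Dusp6 (-1.25, SE 0.05) and Spry2 (-1.17, SE 0.05) were lower, and Ier2 (-0.06) and Phlda1 (0.00) were cancelled.

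Trophoblast genes went the other way, with 4 of 12 showing a lower interaction and 1 a higher one. Of these 12 (14 listed), 8 were higher and 2 lower, with a median of 0.94. The components were opposed for 6 and added up higher for 2, with medians of -0.29 for genotype and 0.88 for Tnrc6a. The simple keratins led: Krt8 stood at 65.2, 65.9 and 64.1 CPM in the Tnrc6a Trim71-/- libraries, against 14.2, 12.8 and 12.9 CPM in Cas9 Ctrl (a log2 fold change of 2.29 with SE 0.07, edgeR adjusted p = 9.80e-30), without overlap, with an interaction of -1.21, SE 0.09, edgeR adjusted p = 9.58e-13, and Krt18 and Krt7 were higher too (2.35, SE 0.09 and 3.16, SE 0.32). Lineage factors were less abundant and differed in direction: Hand1 was higher (1.88, SE 0.25), Cdx2 was lower (-0.83, SE 0.33), and Gata3 was cancelled (-0.14). The Krt7 value was 3.85 without Cas9 Ctrl replicate 1, and the Cdx2 call was lost without Cas9 Ctrl replicate 2 (-0.63, edgeR adjusted p = 0.127) or Tnrc6a Trim71-/- replicate 2 (-0.81, edgeR adjusted p = 0.0560) or 3 (-0.67, edgeR adjusted p = 0.100). The 3 tested trophoblast markers Cdx2, Hand1 and Gata3 summed to 3.64 to 4.26 CPM in Tnrc6a Trim71-/- and 2.51 to 3.53 CPM in Cas9 Ctrl.

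A few groups moved with 1 component. All 7 tested genes of the X-linked Xlr family (10 listed), multicopy genes of germ cell chromatin, were higher, with medians of 2.82 for genotype and -0.03 for Tnrc6a. Xlr3a stood at 10.2, 8.87 and 10.3 CPM in the Tnrc6a Trim71-/- libraries, against 1.15, 0.961 and 1.82 CPM in Cas9 Ctrl (a log2 fold change of 2.87 with SE 0.16, edgeR adjusted p = 1.18e-19). Through Tnrc6a alone, the guanylate-binding protein gene Gbp2b (5.36, SE 0.27) and Cpb2, a carboxypeptidase (5.18, SE 0.39), were higher, their genotype components of -0.19 and -0.31 not passing, and the Gbp2b value was 5.95 without Cas9 Ctrl replicate 3. Cyclin D1 (Ccnd1) stood at 47.4, 49.0 and 51.1 CPM in the Tnrc6a Trim71-/- libraries, against 144, 148 and 141 CPM in Cas9 Ctrl (a log2 fold change of -1.55 with SE 0.04, edgeR adjusted p = 8.19e-30), and its genotype component of -0.02 did not pass. Of the 24 genes of the cell cycle and proliferation list, 13 were lower and 9 higher, Myc (-1.74, SE 0.06) and Ccne1 (-1.37, SE 0.04) lower and Ccne2 (1.67, SE 0.06) higher.

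The RNA decay machinery itself held genes of both directions. For comparison, 32.8% of all genes were higher and 31.9% lower, and whether these lists differ from that was not tested. Of 29 deadenylation and decapping genes, 15 were higher and 10 lower, or 12 and 10 of 25 without those of chromosome 8, and 6 of the 29 added up higher and 5 lower. The BTG and TOB adaptors of the CCR4-NOT complex were higher: besides Btg2, these were Tob1 (1.20, SE 0.04), Tob2 (0.95, SE 0.06) and Btg1 (0.90, SE 0.06). Cnot1, the scaffold of that complex, was cancelled at 477, 459 and 502 CPM in Tnrc6a Trim71-/- and 451, 492 and 493 CPM in Cas9 Ctrl, while Edc4 (0.67, SE 0.04), Lsm1 (0.23, SE 0.06) and Cnot7 (0.39, SE 0.04) were higher. Among 16 genes of small-RNA silencing, 7 were higher, the overexpressed Tnrc6a itself included, and 9 lower, with Ago4 higher (1.77, SE 0.26) and Ago1 (-0.74, SE 0.05), Ago2 (-0.48, SE 0.10) and Tarbp2 (-0.84, SE 0.05) lower. Of 14 nonsense-mediated decay factors, 6 were higher and 4 lower, with Upf3a (0.58, SE 0.05) and Upf1 (0.41, SE 0.04) among the higher ones. Both lie on chromosome 8, and without that chromosome 4 of 12 factors were higher and 4 lower. Of 10 reported TRIM71 targets, 8 were higher and 2 lower. Plxnb2 (1.41, SE 0.04), the splicing factor gene Mbnl1 (1.17, SE 0.08) and the pocket protein gene Rbl1 (0.66, SE 0.06) were higher, with the genotype component larger than the Tnrc6a one in each.

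Genes with microRNA seed sites were looked at because Tnrc6a acts through Argonaute. The mature sequences are from RefSeq (GRCm38.p6), 5′ to 3′, with the seed (bases 2 to 8) in capitals. The first pair is known from stem cells and shares a seed, the third is offset from it by 1 base, let-7 is known to be held low by Lin28a in stem cells, and the last pair belongs to muscle.
mmu-miR-294-3p: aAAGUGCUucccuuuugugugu
mmu-miR-302d-3p: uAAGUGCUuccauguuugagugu
mmu-miR-17-5p: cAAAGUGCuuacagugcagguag
mmu-let-7a-5p: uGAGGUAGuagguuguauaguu
mmu-miR-206-3p: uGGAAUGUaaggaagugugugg
mmu-miR-133b-3p: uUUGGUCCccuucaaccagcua
A site is the reverse complement of the seed in the longest annotated 3′ UTR of a gene, and 14883 tested genes had a UTR. Genes with a site for miR-294 and miR-302d (2483) had a median net change of 0.13, against 0.07 for the 12400 without, and those with a site for miR-17 (2044) had 0.16, against 0.07 for the rest. For let-7 the medians were 0.14 with a site and 0.08 without, for miR-206 0.12 and 0.08, and for miR-133b 0.13 and 0.08. The genes with a site thus had similar medians for stem cell and muscle microRNAs. With 2 or more sites the median was 0.31 for miR-17 (323 genes, 58.8% higher and 16.4% lower), 0.17 for miR-294 and miR-302d (451 genes), 0.13 for let-7, 0.13 for miR-206 and 0.05 for miR-133b. The genotype medians lay between -0.04 and -0.01 in all these classes. Median UTR length moved with the classes, at 2472 bases for genes with a miR-294 site and 930 bases for those without, and its part in the result was not tested.

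Lists of known targets gave mixed counts, beside 32.8% of all genes higher and 31.9% lower. Of 21 listed miR-290 and miR-302 targets, 12 were higher and 6 lower (median 0.24), or 10 and 6 of 19 without chromosome 8 (median 0.14), among them Cdk19 (1.76, SE 0.08) and the Hippo kinase gene Lats2 (0.72, SE 0.08), both higher. The largest rise of this list, 6.31, was that of Irf2 on chromosome 8, which had 2 counts in Cas9 Ctrl. Of 24 let-7 targets, 18 were lower and 4 higher (median -0.42), with Ccnd2 (-1.68, SE 0.11) and Mycn (-1.16, SE 0.05) lower and the matrix gene Thbs1 higher (1.23, SE 0.14).

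The other lists were described by counts of higher and lower members, beside 32.8% of all genes higher and 31.9% lower. Metabolic genes were lower for the most part: 15 lower and 6 higher of 25 for glycolysis and hypoxia, with Ldha (-1.05, SE 0.04) and Pdk1 (-1.17, SE 0.04) lower and Vegfa higher (0.97, SE 0.07), and 15 lower and 3 higher of 23 for cholesterol synthesis, with Sqle (-0.67, SE 0.05) lower. Of 14 unfolded protein response genes, 8 were lower and 6 higher. Counts were 8 lower and 6 higher of 18 for the Wnt response, 6 and 6 of 13 for FGF ligands and receptors, 5 and 5 of 11 for neural genes, and 3 lower and 4 higher of 9 for primitive streak and mesoderm genes. They were 2 lower and 3 higher of 7 for fibroblast markers, 3 and 3 of 10 for neuropeptides and secreted signals, and 0 lower and 3 higher of 4 for Y-linked genes.

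Exons of Ago2, Ccnd1, Ccnd2, Ccne2, Cdk19, Cdkn1a, Cnot1, Cnot7, Col4a1, Col4a2, Cox4i1, Cphx2, Cphx3, Cubn, Cxcl10, Ddit3, Dnmt3a, Dnmt3l, Edc4, Fosl1, Foxd3, Foxq1, Gas5, Gata3, Gata6, Igf2, Krt7, Krt8, Lats2, Lef1, Lin28a, Mst1, Oasl1, Pdgfra, Phlda1, Plcd4, Pou3f1, Pou5f1, Psmb9, Rian, Rpl13, Snrpn, Sox17, Sp110, Sycp3, Tap1, Tet2, Thbs1, Tnrc6a, Tob2, Trim71 and Upf1, among the genes named, overlap those of another annotated gene, most on the opposite strand. The libraries were stranded, but whether reads were counted by strand is not stated in the sources used here.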

How the data were processed

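Total RNA was purified with a Norgen single-cell kit and sequenced as stranded TruSeq libraries, 3 per group in 4 groups, taken from titles and the overexpression tag. Per the submitters' processing notes, bcl2fastq 2.20 and STAR 2.7.3a were used with GRCm38 and mm10. What the tests used are the unnormalized counts that the authors deposited for every gene in every library. The authors also deposited RPKM values and a gene length, which were not used for any test. Which program counted the reads, over which annotation and with what strand option, is not stated in the sources used here.

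All fits used edgeR 4.0.16 under R 4.3.3 (filterByExpr by group, TMM factors, robust quasi-likelihood fit to all 12 libraries with 1 mean per group, two-sided, Benjamini-Hochberg over 20486 genes, threshold 0.05). Levels are CPM with TMM factors, per library or as mean ± SD of 3. Where a group had 0 counts, the fold was computed against a floor of 3 for that group and is a lower bound; with 1 to 3 counts a ratio with its 95% Clopper-Pearson interval is given, and both cover counting error only. The pipeline was tested on simulated data. No 2 libraries of a group agreed within sampling noise.

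The comparison, its gene lists (40, label genes included) and its classes were chosen with earlier results of these data known. Named genes are the label genes, the 12 largest net changes of each sign, 10 of each sign among those that added up or cancelled, 5 per sign of interaction, and from each list at most 6 members by net change and 4 opposed ones, with a minimum mean of 1 CPM outside the lists. Placeholder names (Gm with digits, names ending in Rik, names of clones) were skipped outside the lists. Alternatives were upper-quartile or relative log expression factors, a minimum of 1 CPM in 6 libraries or no filter, DESeq2 1.42.0, limma-voom (limma 3.58.1), a 2-fold minimum, the replicate number as a block, the 2 groups alone, no chromosome 8 genes, and each library left out. Coordinates and symbols missing from the table are from GENCODE M21 (GRCm38), sequences from RefSeq.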

Additional observations from a re-analysis of the deposited data

Results flagged for a closer look

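For 10 genes the effect of Tnrc6a differed between Trim71-/- and control cells by the interaction test in edgeR, where a positive log2 value means a larger effect of Tnrc6a in Trim71-/- cells. They are the 5 largest of each sign among genes that passed an adjusted p of 0.05 with a mean of at least 1 CPM over the 12 libraries. Genes with placeholder names were skipped. Zscan4d had an interaction of 2.51, SE 0.21, edgeR adjusted p = 1.43e-11, and Zscan4-ps1, a pseudogene of the same family, had 2.41, SE 0.27, edgeR adjusted p = 2.55e-08. Spopfm1 had an interaction of 3.03, SE 0.91, edgeR adjusted p = 0.0325, Inpp4b, a phosphoinositide phosphatase, had 3.81, SE 0.92, edgeR adjusted p = 0.00592, and Ankrd22 had 4.45, SE 1.29, edgeR adjusted p = 0.0269. These 3 were at or near 0 counts in Cas9 Trim71-/- cells (Ankrd22 had none), so their fitted values depend on the prior count and are no bounds. In the negative direction, Nostrin, a regulator of endothelial nitric oxide synthase, had -2.54, SE 0.80, edgeR adjusted p = 0.0450, and the metalloprotease gene Adamts3 had -1.79, SE 0.49, edgeR adjusted p = 0.0181. Pramel7 had -1.56, SE 0.40, edgeR adjusted p = 0.0107, the Wnt-responsive factor Sp5 had -1.52, SE 0.45, edgeR adjusted p = 0.0283, and Nanos3, a germ cell factor, had -1.40, SE 0.42, edgeR adjusted p = 0.0299. Adamts3 (0.561 CPM in Tnrc6a Trim71-/-, 2.59 in Tnrc6a Ctrl, 0.403 in Cas9 Trim71-/- and 0.533 in Cas9 Ctrl) and Sp5 (0.767 CPM in Tnrc6a Trim71-/-, 2.43 in Tnrc6a Ctrl, 0.614 in Cas9 Trim71-/- and 0.701 in Cas9 Ctrl) show the pattern in levels: they were highest with Tnrc6a in control cells. The net change of Adamts3 was 0.08, SE 0.36 (edgeR adjusted p = 0.858).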

How the results depend on the processing

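All 11 counts over all genes stayed within 1.5 times their value under the other scalings, filters, tests and fits run, except with a 2-fold minimum. That left 2350 genes higher and 844 lower in the net change, 375 higher and 695 lower in the genotype component, 2325 higher and 558 lower in the Tnrc6a component, 179 with an interaction, 77 adding up higher, 19 adding up lower, 474 opposed and 197 cancelled. With each library left out in turn, net higher genes numbered 6239 to 6834 and net lower ones 6104 to 6617, genotype higher 4450 to 4770 and lower 4702 to 4990, Tnrc6a higher 7227 to 7358 and lower 7181 to 7366, interaction 1059 to 1403, adding up higher 1345 to 1480 and lower 1427 to 1602, opposed 4354 to 4561, and cancelled 1825 to 2011. Of the named genes' net changes across all alternatives, 7117 stayed called or stayed not called, 25 gained a call and 55 lost one. Among genes called in the main fit, 0 changed direction. Genes not called there could change sign, as Gas5 did with values from -0.04 to 0.03. Of list counts, 1637 stayed within 1.5 times and 43 did not, most of them counts of 1 to 3 genes; the cause was not tested.

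Same-numbered libraries of different groups did not deviate together (correlations of deviations from -0.053 to 0.025), so the numbers do not pair the samples. With the number as a block, 6680 genes were higher and 6473 lower, and on the 2 groups alone with the block, an alternative chosen after seeing the data, 6534 and 6364. Genes with few counts per library have wide standard errors, so small net changes in them were not detectable at this depth.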

Other observations

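Further large net falls were found outside the lists. The slit diaphragm gene Nphs1 stood at 6.67, 5.04 and 6.94 CPM in the Tnrc6a Trim71-/- libraries, against 43.9, 41.5 and 41.1 CPM in Cas9 Ctrl (a log2 fold change of -2.76 with SE 0.09, edgeR adjusted p = 1.85e-28), and the secreted phospholipase gene Pla2g1b at 1.12, 1.18 and 1.58 CPM in the Tnrc6a Trim71-/- libraries, against 13.0, 14.0 and 10.4 CPM in Cas9 Ctrl (a log2 fold change of -3.27 with SE 0.16, edgeR adjusted p = 3.35e-21). For both the groups did not overlap and both components were lower. In the list of FGF ligands and receptors, the co-receptor gene Klb was lower (-3.44, SE 0.26) with opposed components of -5.65 and 2.21. Among large rises outside the lists, D13Ertd608e had 177 counts in Tnrc6a Trim71-/- and 3 in Cas9 Ctrl (ratio 52.7, 95% counting interval 17.7 to 258). Within the 2-cell-like list, Spz1, a transcription factor of the testis, had 165 counts in Tnrc6a Trim71-/- and 1 in Cas9 Ctrl (ratio 147, interval 26.1 to 5855).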
